A study of Caenorhabditis elegans with 4 samples.

Results

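The 9 genes described here encode components of P granules, and all 9 were found by symbol among 19971 protein-coding genes of the nuclear chromosomes. They are pgl-1, pgl-3, glh-1, glh-2, glh-3, glh-4, deps-1, meg-1 and meg-2, chosen by name as P granule components, with earlier results of these data already known. The gene pgl-1 (ZK381.4) is on chromosome IV, pgl-3 (C18G1.4) on V, meg-1 (K02B9.1) and meg-2 (K02B9.2) on X, and glh-1 (T21G5.3), glh-2 (C55B7.1), glh-3 (B0414.6), glh-4 (T12F5.3) and deps-1 (Y65B4BL.2) are on I. EFL-1, an E2F-family transcription factor, was mapped in whole hermaphrodite larvae of Caenorhabditis elegans by ChIP-seq, in which DNA bound by a protein is pulled down with an antibody (here a rabbit polyclonal) and sequenced. All animals carried lin-35(n745) (strain MT10430), were labelled as first larval stage (L1), and larvae with a functional lin-35 gene were not studied. The labels add the tag 26dC to the stage but state growth at 20 °C, and the culture temperature was not settled here. The samples were 2 EFL-1 ChIP samples and 2 inputs of total chromatin. Peak lists were analysed for each ChIP replicate and for a combined list, and the inputs themselves were not analysed here. Whether the replicates were separate cultures is not stated in the labels.

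P granules are RNA and protein condensates that mark the germline of C. elegans and sit against the nuclei of germ cells through most of development. PGL-1 and PGL-3 are RNA-binding proteins that build the matrix of the granule, the GLH proteins are DEAD-box RNA helicases related to Vasa, DEPS-1 is needed for normal PGL-1 and GLH-1 accumulation, and MEG-1 and MEG-2 act on the granules of the embryo. LIN-35 is the worm retinoblastoma-family protein and works with E2F factors in a complex that keeps genes repressed. As background, larvae that lack LIN-35 are known to express P granule genes in somatic cells, which normally keep them silent. Expression was not measured in these samples, so the peak lists address where EFL-1 was found and not whether a gene was active.

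Of the 9 P granule genes, pgl-3 alone had a combined EFL-1 ChIP peak whose centre lay within 500 bp of a gene end. The other 8, which were pgl-1, glh-1, glh-2, glh-3, glh-4, deps-1, meg-1 and meg-2, had no combined peak at either end and none inside the gene. Both ends of each gene were tested because the gene table gave left and right ends without a strand. A gene with no peak at either end has none at its start, while for pgl-3 the end at which the peak lay was not identified as start or finish. The 1 called gene of 9 is 11.1%, and of all protein-coding genes 3925 of 19971, or 19.7%, had a combined peak at either end. Over so few genes, 1 of 9 is close to that background and is no result about the group. At left ends alone the background was 10.6%, and at right ends alone it was 10.98%.

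The peaks are in WormBase WS220 coordinates, whereas the gene table is of assembly WBcel235, so the shift between the builds was estimated from the peaks. A shift moves peaks the same way along the chromosome at left and at right gene ends. The mean of both median distances estimates it only if peaks otherwise lie equally far outside both ends, which was not tested. Medians were taken over 2114 left ends and 2193 right ends with a combined peak. The median distance from the gene end to the peak centre was -199 bp at left ends and 149.5 bp at right ends. Negative values point to the left, and the estimate was -24.75 bp. It cannot be told from a difference between left and right ends in where peaks lie. By chromosome the estimate was -10.5 bp on I, -14.75 bp on IV, -6.5 bp on V and -53 bp on X. Among genes within 2 Mb of a member it ran from -85.25 bp around meg-1 and meg-2 to 6.5 bp around glh-2. The smallest shift that would change any of the 9 calls was 361 bp, for pgl-3, followed by 458 bp for deps-1. Distances below are given as measured, without a correction, and are uncertain by about the estimated shift.

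**Figure D1:**
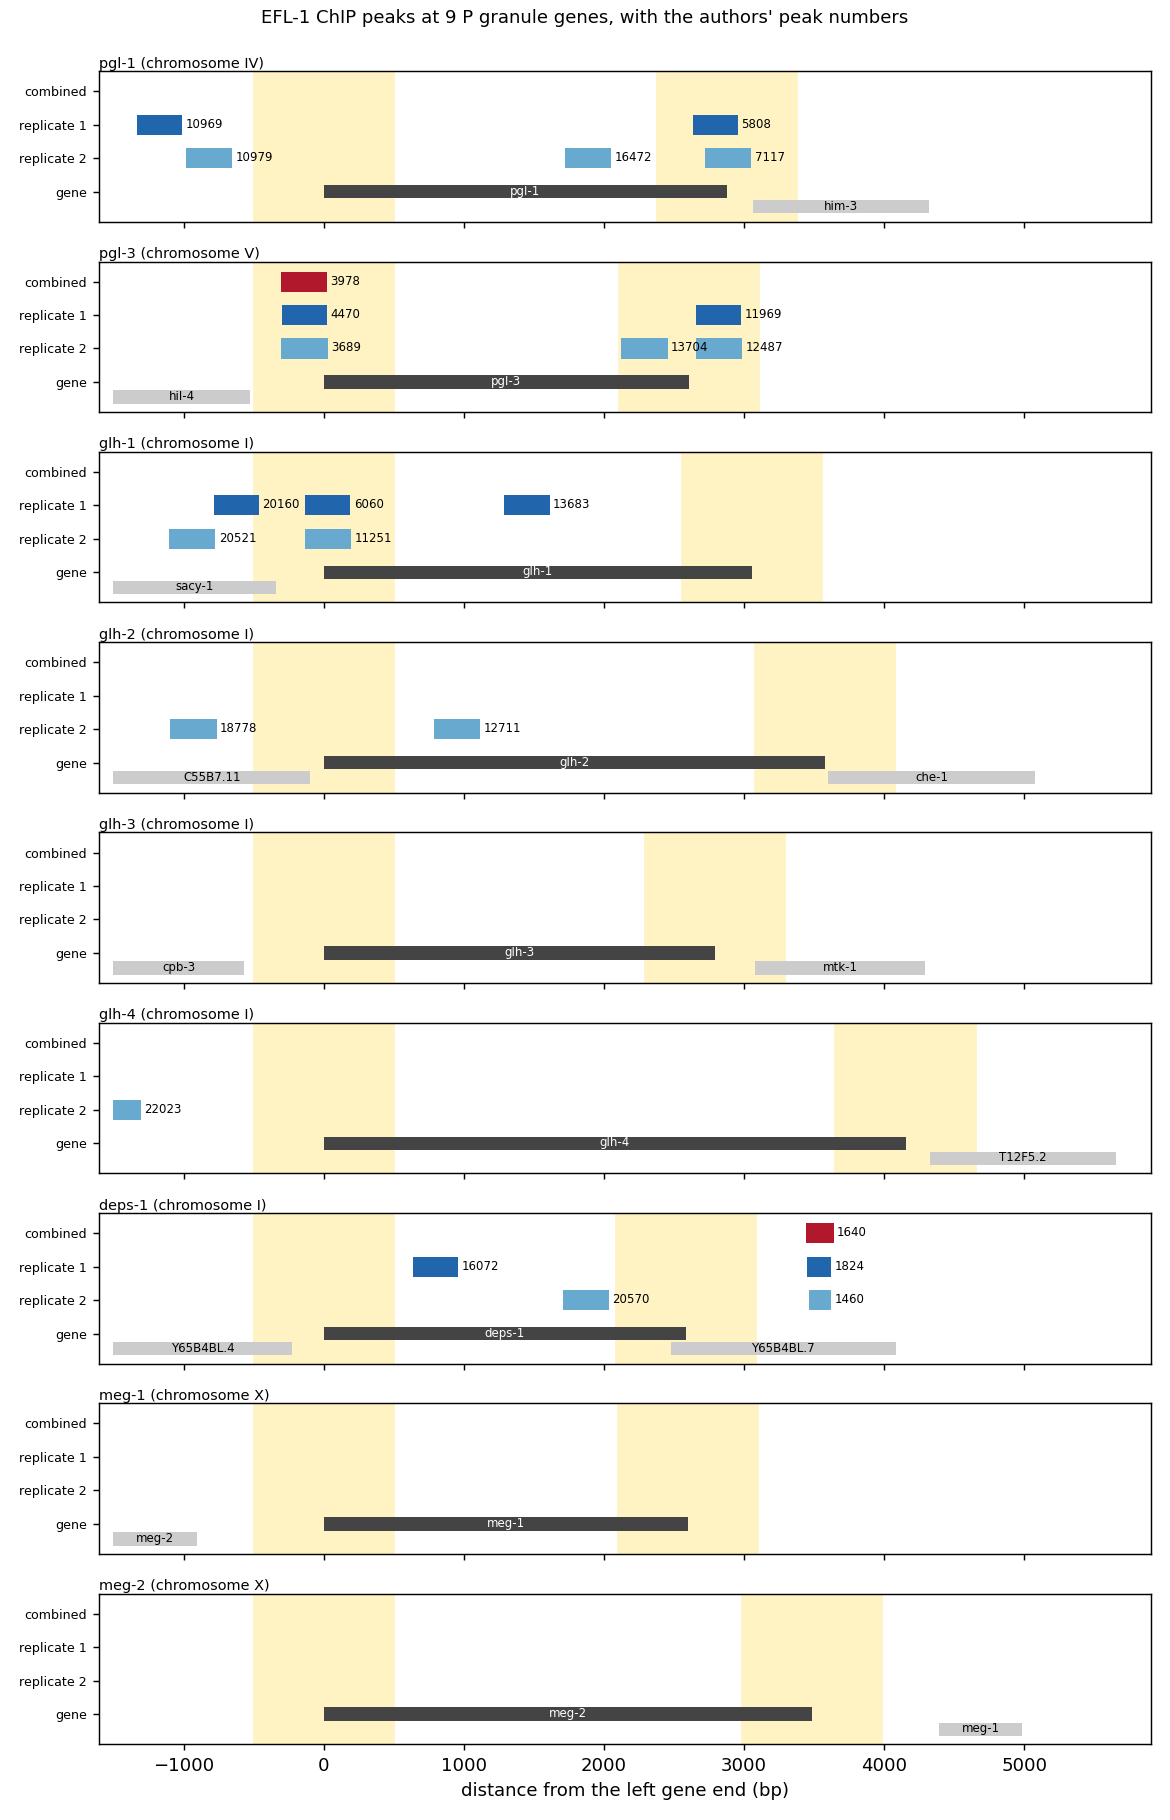
Map of the 9 P granule genes (dark bars) and neighbouring protein-coding genes (pale bars), with the distance in bp from the left gene end on the horizontal axis and the peaks of the combined list, replicate 1 and replicate 2 as coloured bars with the authors' peak numbers. Yellow bands mark 500 bp to each side of a gene end; a combined peak lies in a band at pgl-3 alone (peak 3978), and that of deps-1 (peak 1640) lies outside.

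The matrix gene pgl-3 carried a reproducible peak of modest rank. The combined peak was on chromosome V from 4755675 to 4756004 (WS220) and its centre lay 139.5 bp outside the left end of the gene. It was peak 3978 of 4966. The number in a peak's name was taken as its rank, with 1 as the strongest. All 4966 combined peaks have the same score, so the score does not order them. Replicate 1 had this site as peak 4470 with the score 4.0001, the top value of that list, and its centre was 137.5 bp from the gene end. Replicate 2 had it as peak 3689 with the score 3.88, also the top value of its list, at 136.5 bp. The centres of the replicate peaks were 1 bp apart, so both replicates placed the site at the same point. Scores have no stated unit and are the authors' own, and 5002 peaks of replicate 1 and 3810 peaks of replicate 2 were tied at the top value.

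Among all 3925 genes with a combined peak at an end, the lowest-numbered peak of each gene had a median number of 1893. In 3420 of these genes (87.1%) that number was lower than the 3978 of pgl-3. By number alone, pgl-3 therefore stood among the lower-ranked called genes. The centre of its peak lay between genes, while the peak itself covered the left end of pgl-3. The right end of hil-4, a linker histone H1-like gene, was 386.5 bp from the centre, against 139.5 bp for pgl-3. By the same rule the peak was counted at both genes, and to which of them it belongs was not tested. At the right end of pgl-3 both replicates also held a weak peak, number 11969 in replicate 1 (score 0.413, 208.5 bp outside) and number 12487 in replicate 2 (score 0.297, 215.5 bp outside). The combined list held no peak there.

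The other matrix gene, pgl-1, had no combined peak at either end, and its nearest one was 39401 bp away, near trxr-1, a thioredoxin reductase gene. Of all protein-coding genes, 91.8% had a combined peak nearer than that. Both replicates nevertheless had a weaker peak at its right end. In replicate 1 it was peak 5808 on chromosome IV from 6977074 to 6977397, with the score 2.74 and its centre 82.5 bp inside the gene. In replicate 2 it was peak 7117 from 6977163 to 6977492, with the score 1.095 and its centre 9.5 bp outside. These peaks shared 235 bp and their centres were 92 bp apart, so the replicates agreed on the site less closely than at pgl-3. The neighbouring gene him-3, which encodes a protein of the meiotic chromosome axis, lies 189 bp beyond pgl-1. Its left end was 272.5 bp from the centre in replicate 1 and 180.5 bp in replicate 2, and the site cannot be given to one of these genes.

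Among the helicase genes, glh-1 resembled pgl-1. Replicate 1 had peak 6060 on chromosome I from 6854345 to 6854668 (score 2.41), centred 28.5 bp inside the left end of glh-1. Replicate 2 had peak 11251 from 6854346 to 6854675 (score 0.383), centred 32.5 bp inside it. The centres were 4 bp apart, while the ranks were far apart, and the combined list had no peak there. The right end of sacy-1, another DEAD-box helicase gene, was 366.5 bp from the replicate 1 centre. The nearest combined peak to glh-1 was number 2262, 4400.5 bp away. It lay 154.5 bp from an end of syp-4, a gene of the synaptonemal complex, and 331.5 bp from an end of rpb-5, an RNA polymerase subunit gene.

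Absence of the pgl-1 and glh-1 sites from the combined list was usual for peaks of their rank. Of the 500 replicate 1 peaks within 250 numbers of the pgl-1 peak, 70 (14%) overlapped a combined peak, although 362 (72.4%) overlapped a peak of replicate 2. Around the pgl-1 peak of replicate 2 the share in the combined list was 10.6%. For glh-1 it was 12.4% in replicate 1 and 2.60% in replicate 2. Around the pgl-3 peak, in contrast, 360 of 500 replicate 1 peaks (72%) and 439 of 500 replicate 2 peaks (87.8%) were in the combined list. These shares describe the lists and do not say whether EFL-1 was bound at a site that was left out.

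**Figure D2:**
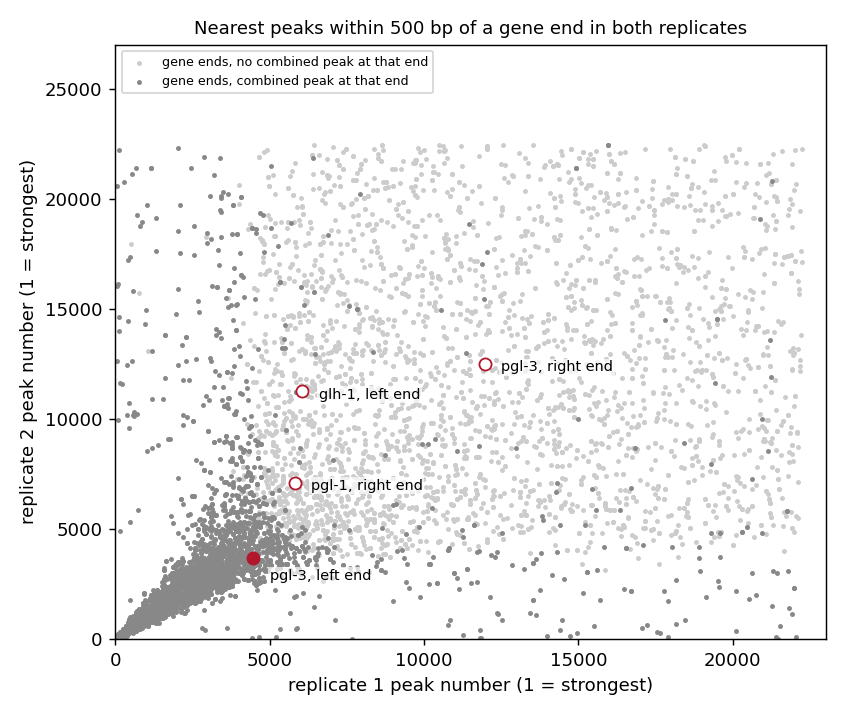
Peak number in replicate 1 (horizontal axis) against replicate 2 (vertical axis) for the nearest peaks at every gene end that had a peak centre within 500 bp in both lists. Number 1 was taken as the strongest, and dark dots are ends that also had a combined peak. The filled red circle is the left end of pgl-3 (4470 and 3689), inside the dark cloud; open circles are the right end of pgl-1 (5808 and 7117), the left end of glh-1 (6060 and 11251) and the right end of pgl-3 (11969 and 12487), all without a combined peak.

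The remaining helicase genes had no peak within 500 bp of an end in any list. For glh-2, replicate 1 had nothing nearer than 6175.5 bp to an end, and replicate 2 had peak 12711 inside the gene (score 0.284) and peak 18778 at 928.5 bp (score 0.0669). For glh-3, the nearest peaks were 5817.5 bp away in replicate 1 and 3141.5 bp away in replicate 2, and neither replicate had a peak inside the gene. For glh-4, they were 2231.5 bp and 1467.5 bp away. The nearest combined peaks lay 14605 bp from glh-2, 12399 bp from glh-3 and 3345.5 bp from glh-4. That nearest to glh-3 was peak 399, a site ranked high by number (peak 345 in replicate 1 and 494 in replicate 2). Its centre lay 196 bp from an end of lin-35, the gene mutated in this strain, and 222 bp from an end of vps-51.

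For deps-1 the nearest combined peak lay outside the 500 bp window, 958 bp beyond the right end. It was peak 1640 on chromosome I from 509916 to 510112 (peak 1824 in replicate 1 and 1460 in replicate 2), a lower number than that of pgl-3 in all lists. The scores of both peaks were tied at the top value of each list, so the scores show no difference in strength. The centre of peak 1640 was inside Y65B4BL.7, a gene that overlaps the right end of deps-1 and whose nearer end was 1066 bp away. Inside deps-1, replicate 1 had a weak peak, number 16072, at 797.5 bp from the left end, and replicate 2 had number 20570 at 710.5 bp from the right end. Those inside the gene were not the same site. The members on either side of the 500 bp limit were therefore pgl-3 at 139.5 bp and deps-1 at 958 bp. A 1000 bp window called both, 2 of 9 members, against 24.9% of all genes. In the lower-numbered 50% of the combined list no member was called (0 of 9), against 12.1% of all genes.

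The embryonic genes meg-1 and meg-2, neighbours on chromosome X with 906 bp between them, had no peak in any list within 1500 bp or inside either gene. Their nearest combined peak was the same one, number 3879 (peak 3764 in replicate 1, 4242 in replicate 2). It lay 2097.5 bp from the left end of meg-2 and 6490.5 bp from the left end of meg-1, and no protein-coding gene had an end within 500 bp of it. Over all 9 genes the median distance to the nearest combined peak was 4400.5 bp, against 5538.5 bp over all protein-coding genes.

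**Figure D3:**
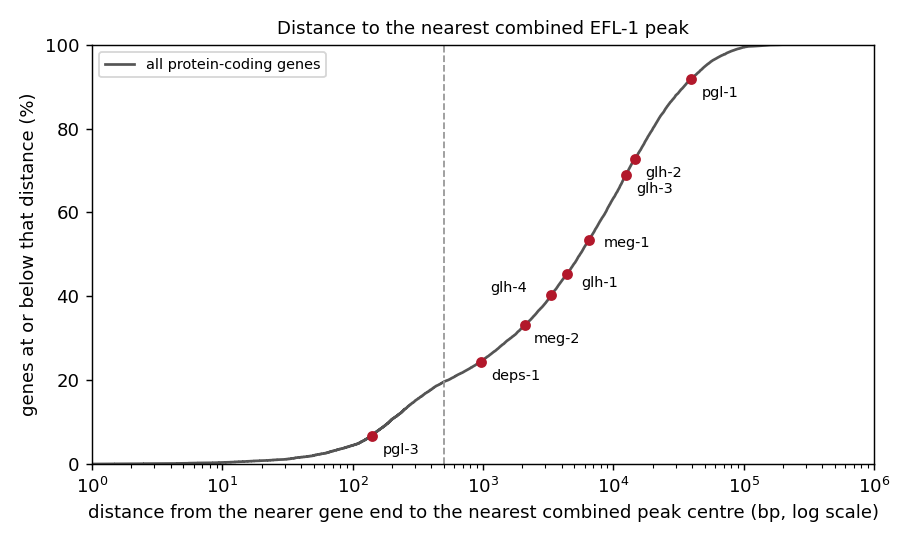
Percentage of protein-coding genes (vertical axis) at or below each distance in bp from the nearer gene end to the nearest combined peak centre (log scale), with the 9 P granule genes as red points on the curve. The dashed line is the 500 bp limit. Left of it lies pgl-3 (139.5 bp), the next member to its right is deps-1 (958 bp), and pgl-1 (39401 bp) is farthest out.

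Used without the combined list, each replicate gave the same picture. When each list was limited to the 4966 peaks with the lowest numbers, pgl-3 was the 1 member called in each. The background was 19.4% of genes in replicate 1 and 19.2% in replicate 2. In replicate 1 that cut fell inside the 5002 peaks tied at the top score. With all 22275 and 22464 peaks, pgl-1, pgl-3 and glh-1 were called in both replicates, or 3 of 9, against 44.3% of genes in replicate 1 and 44.9% in replicate 2. A peak at the same gene end in both full lists was found at those 3 members and at 31.4% of all genes. For pgl-1 and glh-1 there was such a pair but no combined peak at either end, which held for 11.9% of all genes. The replicates therefore made the same calls for all 9 genes. Whole larvae were used, so a site bound in few cells and a weakly bound site cannot be told apart. Read depth is unknown, since the lists give no read counts.

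Other genes of the germ granule pathway were counted by the same rule, as context, over 4 lists with 42 of 44 genes matched, of which 16 (38.1%) were called against the background of 19.7%. These lists, too, were chosen with earlier results known, and the count depended on the window. With a 250 bp window 7 of the 42 (16.7%) were called, against 13.1% of all genes, and where a peak had to cover a gene end 2 of 42 (4.76%) were called, against 6.57%. With a 1000 bp window it was 23 of 42 (54.8%, against 24.9%), and in the lower-numbered 50% of the combined list 12 of 42 (28.6%, against 12.1%). Of 24 other genes for P granule RNA-binding and scaffold proteins, 10 had a combined peak at an end. The lowest-numbered of these peaks, number 15, was at oma-2, a gene for a zinc finger protein of oocyte maturation. However, vars-1, a valyl-tRNA synthetase gene, had an end 57 bp from that peak's centre, against 140 bp for oma-2. For 5 of the 10 the gene itself was the nearest to the peak: meg-3 (peak 1654), meg-4 (peak 3985), car-1 (peak 1718), laf-1 (peak 1275) and lotr-1 (peak 973). At vbh-1 (peak 390), oma-1 (peak 836), spn-4 (peak 1323) and pos-1 (peak 4307), as at oma-2, another gene had the nearer end. The 14 without a combined peak include the helicase gene cgh-1 and the RNA regulators gld-1, gld-2, gld-3, gld-4, pie-1, mex-1 and mex-3.

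The MEG genes were not all alike in their peaks. MEG-3 and MEG-4 are disordered proteins that scaffold P granules in the embryo, and their genes had peaks centred 167 bp and 190.5 bp from a gene end, with no end of another protein-coding gene within 500 bp. In the replicates these were peaks 1540 and 1844 for meg-3, and 4409 and 3660 for meg-4. All MEG genes named here are on chromosome X, and meg-1 and meg-2 had no peak within 1500 bp in either replicate.

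Of 10 matched small RNA genes of germ granules, 4 (40%) were called: wago-4 (peak 1914), ekl-1 (peak 1745), mut-16 (peak 3405) and simr-1 (peak 605). Over all genes the share at 500 bp was 19.7%, which applies to each list in this paragraph. The genes mut-16 and simr-1 were at the very limit, 499.5 bp from the peak centre, which is within the uncertainty of the build shift. C06A5.3 had an end nearer to the simr-1 peak. At mut-16 the lowest-numbered peak within 500 bp was 21168 in replicate 1 and 3565 in replicate 2. None of the 10 was called with a 250 bp window (0, all genes 13.1%) or where a peak had to cover a gene end (0, all genes 6.57%). With gene ends moved 100 bp to the right, 2 were called. The Piwi gene prg-1 and the Argonaute genes csr-1 and wago-1 had no combined peak at an end. None of 5 genes that partition P granules in the embryo was called, namely mex-5, mex-6, par-1, pptr-1 and mbk-2. Of 3 matched genes that clear PGL proteins from somatic cells by autophagy, 2 were called, sepa-1 (peak 2857) and lgg-1 (peak 1955), and epg-2 was not. The end of top-1, a topoisomerase gene, was nearer to the sepa-1 peak than that of sepa-1.

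For scale, all 6 MCM helicase genes, which encode the replicative helicase and are classic E2F targets, had a combined peak, numbered from 226 (mcm-7) to 1751 (mcm-3). Their peaks all had lower numbers than that of pgl-3. Another gene had the nearer end at the peaks of mcm-3 (nssp-71), mcm-4 (Y39G10AR.32) and mcm-5 (nth-1), so that 3 of the 6 were themselves nearest. All 6 were also called with a 250 bp window (all genes 13.1%), and 1 of 6 where a peak had to cover a gene end (all genes 6.57%). Of 12 genes for the meiotic chromosome axis and synapsis, 5 (41.7%) were called: htp-3 (peak 1536), syp-4 (2262), syp-2 (2970), coh-4 (3262) and coh-3 (4807). At coh-3 the lowest-numbered peak at an end was 4077 in replicate 1 and 20070 in replicate 2. The share over all genes at 500 bp was 19.7%, for this list as for the MCM genes. The calls at him-3 in the replicates rested on the same peaks, 5808 and 7117, as those at pgl-1. The differences between these lists and the P granule genes were not tested.

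**Figure D4:**
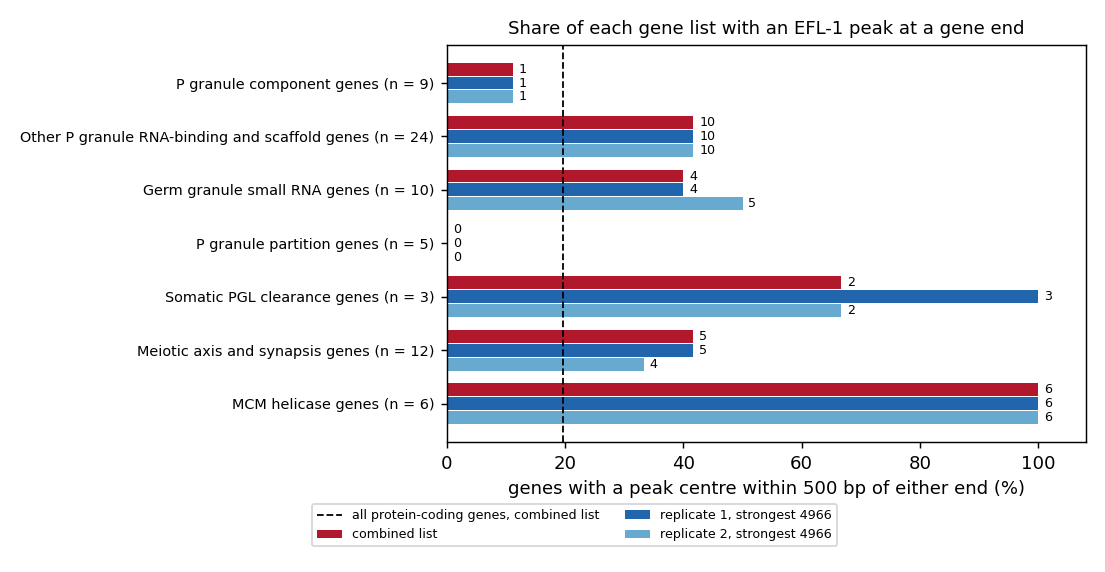
Percentage of matched genes with a peak centre within 500 bp of either gene end (horizontal axis) for each list, from the combined list and from the 4966 strongest peaks of each replicate, with the number of called genes beside each bar. The dashed line is the combined share over all protein-coding genes (19.7%); the 9 P granule genes stand at 1 of 9 in each list, and the MCM genes at 6 of 6.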

How the data were processed

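EFL-1 ChIP-seq peak lists were used for 2 ChIP samples and for their combination. Per the file headers and source fields, coordinates are WormBase WS220 and peaks came from SPP and IDR (irreproducible discovery rate); no version, threshold or aligner, and no way of combining, is given in the sources used. The score that the authors deposited has no stated unit, is the same in all 4966 combined peaks, and was used only to describe peaks within a list. The number in a peak's name was taken as its rank. Replicates are numbered as in the sample titles; the deposited files of replicates 1 and 2 carry the numbers 2 and 3.

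Gene names and ends came from RefSeq's gene table of WBcel235, which was used without printing its coordinates. A gene was called when a peak centre lay within 500 bp of either end, because that table gives no strand; the plan had named the gene start, and the build shift was estimated from left and right ends in place of strands. Promoter motifs and protein comparisons, also planned, were not run, as no sequence was at hand. The calls and the shift estimate were tested on simulated data. The simulated peaks lay equally far outside left and right ends, so the simulation cannot show whether the real peaks do. Python 3.11.15, numpy 2.4.6, pandas 2.3.3, scipy 1.17.1 and matplotlib 3.10.9 were used.

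The genes described and the other lists were chosen with earlier results of these data known. Named genes are the 9 members, the genes whose ends lie at their peaks or at their nearest combined peaks (the latter added after the data were seen), members of the lists, and genes nearer to a list gene's peak (likewise added). wago-3 and epg-11 were not matched. No p-value is given, since the design has 1 condition. Alternatives were other windows, shifted gene ends, the lower-numbered 50% of the list and each replicate's own list.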

Additional observations from a re-analysis of the deposited data

How the results depend on the processing

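The count of 1 called P granule gene of 9 was the same with a 250 bp window, with peaks that cover a gene end, and with gene ends moved by the estimated shift or by 100 bp either way. It was also 1 in the strongest 4966 peaks of replicate 1 alone (all genes 19.4%) and of replicate 2 alone (all genes 19.2%). It was 2 with a 1000 bp window, which adds deps-1 (all genes 24.9%), and 0 in the lower-numbered 50% of the combined list (all genes 12.1%). With all peaks of replicate 1 it was 3 (all genes 44.3%), and with all peaks of replicate 2 also 3 (all genes 44.9%). Taken separately, a choice made after the data were seen, left ends gave 1 and right ends 0. The 16 called genes of the 4 pathway lists became 7 with a 250 bp window (16.7%, all genes 13.1%), 2 with peaks that cover a gene end (4.76%, all genes 6.57%), and 10 at left ends and 7 at right ends. They became 17 in the strongest peaks of replicate 1 alone (all genes 19.4%) and 17 in those of replicate 2 alone (all genes 19.2%). The background of 19.7% became 12.1% over all annotated genes, 10.6% at left ends and 10.98% at right ends. The estimated build shift over all genes was -17.1 bp with centres within 250 bp, and on X it went from -53 bp to -22.75 bp. The windows are narrower or wider, and the lists shorter or longer, by construction; other causes were not tested. The alternatives do not remake the combined list from 1 replicate. No paired analysis was possible because only the ChIP group has peak lists here, so there is no second group to pair with it. Without read depths, a site that was absent cannot be told from one that was missed.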
